A study of Mus musculus with 3 samples.

Results

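The 8 loci examined hold genes of the pluripotency network of mouse embryonic stem (ES) cells, namely Pou5f1, Sox2, Nanog, Klf4, Esrrb, Zfp42, Prdm14 and Tbx3. The rule that defines them uses gene names and mm9 coordinates and no read counts, but the set was proposed with earlier results of these data known. Together they span 565 kb, or 1130 bins of 500 bp, of the 2557540 kb of usable genome. TET2, OGT and histone H2B carrying N-acetylglucosamine on the serine S112 (H2B S112GlcNAc) were mapped by chromatin immunoprecipitation and sequencing, with 1 library per antibody. All 3 libraries came from C57BL/6 mouse ES cells grown on gelatin without feeder cells, in serum with ESGRO, a leukaemia inhibitory factor supplement. The TET2 antibody was made in-house, the OGT antibody was a commercial one from Novus, and the third is credited to a published academic source. The labels name no treatment and no change of genotype, and no input library was used here. The libraries hold DNA fragments, so the cell type could not be checked from expression.

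Pou5f1 (also called Oct4), Sox2 and Nanog are transcription factors at the core of the pluripotency network. They bind each other's enhancers as well as their own, and their genes are active in ES cells. TET2 oxidises 5-methylcytosine in DNA and can bind OGT, the enzyme that attaches N-acetylglucosamine to nuclear proteins, among them histone H2B. The question addressed is where the enzyme pair and the modified histone lie at genes that ES cells use.

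On chromosomes 1 to 19 and X the TET2 library held 3295957 distinct read positions, that of OGT 1877581 and that of H2B S112GlcNAc 4021971. A position is a read's 5′ end counted once per strand and moved 100 bp towards the fragment centre. The library mean was 1.29, 0.734 and 1.57 positions per kb, so an average stretch of 2 kb held 2.58, 1.47 and 3.15. A fold below is a count over the count expected at that mean, and 95% intervals are exact Poisson intervals that cover counting error alone. A second fold was taken over the mean of the 1 Mb on each side of the locus. Start sites and gene ends were set to the nearest 0.5 kb from general knowledge of the mm9 gene models, since no annotation of that build was used here. The spans so set differed from the RefSeq gene lengths of build GRCm38.p6 by at most 0.246 kb (Pou5f1), but their mm9 position was not checked against a file.

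The promoters behind the start-site results are shown first, because they range from dense to sparse in CG dinucleotides, the substrate of DNA methylation. They are the 250 bases upstream of a start in RefSeq build GRCm38.p6, 5′ to 3′ along the gene, with each CG in capitals. Their places in that build are chr4:55532476-55532725 (minus strand) for Klf4, chr3:34649745-34649994 (plus) for Sox2, chr12:86421394-86421643 (plus) for the short Esrrb transcripts, chr6:122707239-122707488 (plus) for Nanog and chr8:43307010-43307259 (minus) for Zfp42. These coordinates are not those of the read files. RefSeq held 9 promoters for 6 of the 8 genes and none for Prdm14 and Tbx3. Of those 9, the 5 printed run from 3 to 32 CG, and the lowest, with 2, is not printed.
Klf4: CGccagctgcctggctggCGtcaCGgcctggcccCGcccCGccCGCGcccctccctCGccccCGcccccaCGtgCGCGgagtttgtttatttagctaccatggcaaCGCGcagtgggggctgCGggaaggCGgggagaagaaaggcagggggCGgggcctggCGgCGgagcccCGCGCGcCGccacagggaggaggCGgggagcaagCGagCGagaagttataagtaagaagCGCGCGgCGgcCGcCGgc
Sox2: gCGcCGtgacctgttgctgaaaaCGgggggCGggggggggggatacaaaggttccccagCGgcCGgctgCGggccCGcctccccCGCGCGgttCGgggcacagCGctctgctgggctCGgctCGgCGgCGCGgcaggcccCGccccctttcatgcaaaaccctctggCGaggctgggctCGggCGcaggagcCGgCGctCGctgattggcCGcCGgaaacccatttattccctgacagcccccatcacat
Esrrb short: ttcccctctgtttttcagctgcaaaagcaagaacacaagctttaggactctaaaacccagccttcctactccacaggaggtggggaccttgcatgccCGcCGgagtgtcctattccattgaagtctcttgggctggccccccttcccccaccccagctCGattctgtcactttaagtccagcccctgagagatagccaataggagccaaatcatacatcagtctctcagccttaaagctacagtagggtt
Nanog: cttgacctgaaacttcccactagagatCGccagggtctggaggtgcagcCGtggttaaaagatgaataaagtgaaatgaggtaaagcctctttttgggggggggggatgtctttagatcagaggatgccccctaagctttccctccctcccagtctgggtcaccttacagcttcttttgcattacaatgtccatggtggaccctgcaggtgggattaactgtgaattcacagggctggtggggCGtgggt
Zfp42: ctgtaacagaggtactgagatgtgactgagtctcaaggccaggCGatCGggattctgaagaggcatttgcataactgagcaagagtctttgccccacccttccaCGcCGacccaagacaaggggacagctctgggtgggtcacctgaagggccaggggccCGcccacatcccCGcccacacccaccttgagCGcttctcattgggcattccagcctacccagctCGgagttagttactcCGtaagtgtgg
The Klf4 promoter holds 32 CG and the Sox2 promoter 27, against a median of 6 over 32851 RefSeq promoters of the same length. At least 32 CG are found in 4.58% of those promoters and at least 27 in 8.56%. Zfp42 has 9 CG, and the Nanog and short Esrrb promoters have 3 each. Among the 4 not printed, those of Pou5f1 have 8 and 6, that of the long Esrrb transcripts 6 and another of Nanog 2.

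Summed over the 8 loci, all 3 libraries were denser than their mean. TET2 had 1838 positions in them, a fold of 2.52 (2.41 to 2.64). OGT had 902, a fold of 2.17 (2.03 to 2.32), and H2B S112GlcNAc had 1971, a fold of 2.22 (2.12 to 2.32). Much of this was shared with the surroundings of the loci. Over the 1 Mb on each side the folds were 1.49 (1.42 to 1.56), 1.33 (1.24 to 1.42) and 1.33 (1.28 to 1.39). The Esrrb locus alone held 48.2% of the TET2, 50.9% of the OGT and 49.5% of the H2B S112GlcNAc positions of the set, with 31.9% of its length. Without it the summed folds over the library mean were 1.92, 1.57 and 1.65.

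Single loci ranged from near the library mean to well above it. The Esrrb locus, chromosome 12 from 87690 to 87870 kb, had a TET2 fold of 3.82, an OGT fold of 3.47 and an H2B S112GlcNAc fold of 3.44. Of the 14200 genome windows of that length, 0.197%, 0.254% and 0.225% were at least as dense. Its flanks were also dense, at 2.91, 2.73 and 2.74 times the library mean. Pou5f1 (chromosome 17 from 35620 to 35660 kb) had folds of 2.89, 2.15 and 2.40, in flanks at 2.14, 2.02 and 2.01. Tbx3 (chromosome 5 from 120110 to 120140 kb) had 2.92, 1.68 and 2.10, in flanks at 1.87 in each library. At least as dense as Pou5f1 were 1.50%, 4.68% and 2.29% of genome windows of its length. For Tbx3 the shares were 1.57%, 12.0% and 4.93%. At the other end, the Zfp42 locus, chromosome 8 from 44375 to 44400 kb, had folds of 1.12 (0.783 to 1.55), 0.926 (0.540 to 1.48) and 1.37 (1.03 to 1.79). It lay in sparse flanks, at 0.625, 0.650 and 0.668 times the mean. Of genome windows of its length, 31.3%, 44.7% and 20.6% were at least as dense. Sox2, Nanog, Klf4 and Prdm14 had folds from 1.43 to 2.02, in flanks from 0.886 to 1.05. Windows at least as dense were common in the genome for these loci. Their share ran from 6.67% (Klf4 in TET2) to 18.2% (Nanog in TET2). Over its own flanks Klf4 led for TET2, at 2.28, with OGT at 1.82 and H2B S112GlcNAc at 1.49. On that scale Zfp42 had 1.79, 1.42 and 2.06, and Esrrb 1.31, 1.27 and 1.26.

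Start sites had the highest fold of the parts of the loci in each library. In the windows of 1 kb on each side of the 9 start sites, of which Esrrb has 2, there were 123 TET2, 44 OGT and 102 H2B S112GlcNAc positions. The folds over the library mean were 5.30 (4.41 to 6.33), 3.33 (2.42 to 4.47) and 3.60 (2.94 to 4.37). Over the flanks they were 3.35 (2.79 to 4.0), 2.16 (1.57 to 2.90) and 2.32 (1.89 to 2.82). In gene bodies, less those windows, the folds over the flanks were 1.40, 1.26 and 1.26. In the 337.5 kb outside these 8 genes and their start sites they were 1.47, 1.36 and 1.36. Other genes that lie in the loci were not removed from that length. Over the library mean bodies stood higher, at 3.49, 2.96 and 2.97, but Esrrb held 83.1%, 84.8% and 85.6% of the body positions. For OGT the interval in bodies, 2.69 to 3.24, overlapped that at start sites on this scale, and so did that of H2B S112GlcNAc.

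**Figure D1:**
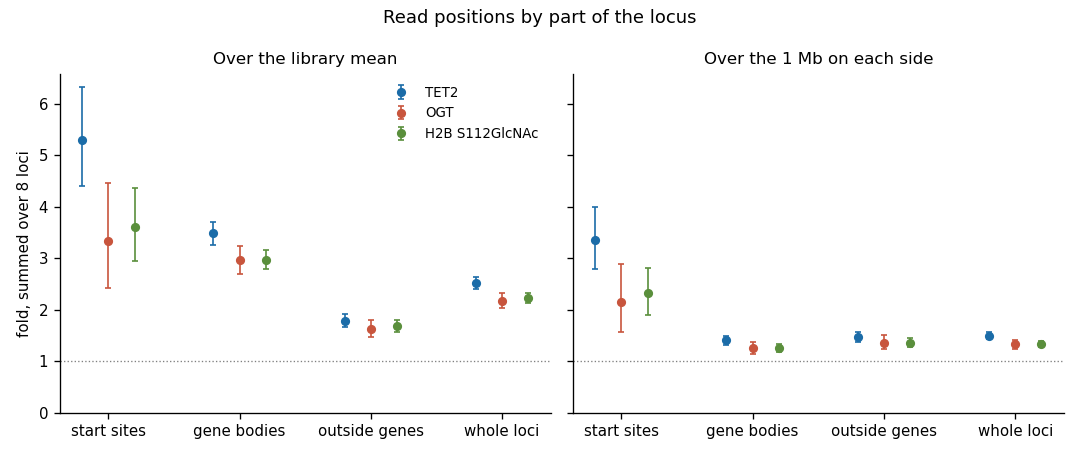
Fold of read positions in start-site windows, gene bodies, the rest of the loci and whole loci, summed over 8 loci, over the library mean (left) and over the 1 Mb on each side (right). Points are folds and bars exact Poisson 95% intervals. Start sites are highest in each library, with TET2 at 5.30 on the left and 3.35 on the right.

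At least 4-fold over the library mean was reached at 5 of 9 start sites by TET2, 4 of 9 by OGT and 3 of 9 by H2B S112GlcNAc. Of all 2 kb windows of the genome 1.76%, 2.34% and 0.969% reached it. Those windows are not start sites, and start sites of other genes were not analysed here, so the counts do not set these genes apart from other active genes. Over the flanks 2, 2 and 1 of the 9 start sites reached 4-fold. The share of genome windows that reach 4-fold over their own flanks was not taken, so this last count has no background beside it.

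**Figure D2:**
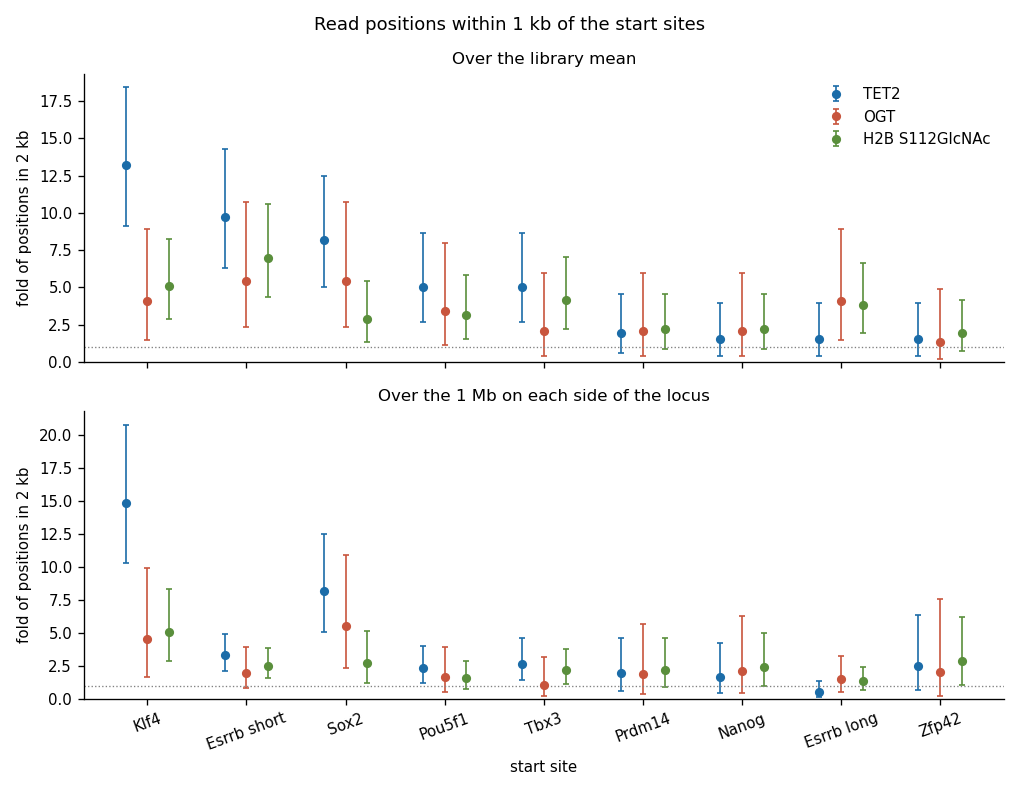
Fold of positions within 1 kb of each start site over the library mean (top) and over the 1 Mb on each side of the locus (bottom), in order of the TET2 count, with exact Poisson 95% intervals. Klf4 leads for TET2 in both panels, and Esrrb falls from 9.70 to 3.33 at its short start once its dense flanks are the reference.

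Among the core factors, Sox2 had the most TET2 positions at its start site, and Nanog had few in any library. At the Sox2 start, chromosome 3 at 34549 kb, there were 21 TET2, 8 OGT and 9 H2B S112GlcNAc positions, folds of 8.15 (5.04 to 12.5), 5.45 (2.35 to 10.7) and 2.86 (1.31 to 5.43). The flanks of Sox2 were near the library mean, and the folds over them were 8.18, 5.52 and 2.73. At the Pou5f1 start, chromosome 17 at 35643 kb, the 13 TET2, 5 OGT and 10 H2B S112GlcNAc positions gave folds of 5.04 (2.69 to 8.62), 3.41 (1.11 to 7.95) and 3.18 (1.52 to 5.85). Over the flanks of Pou5f1 only the TET2 interval stayed above 1, at 2.35 (1.25 to 4.02), with OGT at 1.69 (0.548 to 3.94) and H2B S112GlcNAc at 1.58 (0.758 to 2.91). At the Nanog start, chromosome 6 at 122657.5 kb, the 4 TET2, 3 OGT and 7 H2B S112GlcNAc positions gave folds of 1.55 (0.423 to 3.97), 2.04 (0.421 to 5.97) and 2.23 (0.895 to 4.59). With the window widened to 2 kb on each side, Nanog was above the library mean in all 3 libraries, at 3.49 (2.07 to 5.52), 2.72 (1.18 to 5.37) and 3.02 (1.82 to 4.72).

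Klf4, a factor that supports self-renewal, had the highest TET2 count of the 9 start sites. At chromosome 4, 55545.5 kb, there were 34 TET2 positions, a fold of 13.2 (9.14 to 18.4), and 0.0475% of 2 kb genome windows held as many. OGT had 6 positions there, a fold of 4.09 (1.50 to 8.89), and H2B S112GlcNAc 16, a fold of 5.09 (2.91 to 8.26). Scaled to library size, TET2 was 3.23 times OGT (1.34 to 9.41) and 2.59 times H2B S112GlcNAc (1.39 to 5.03). These intervals compare the libraries by counting error and say nothing of repeat experiments. Klf4 was singled out by its TET2 count, so its ratios follow in part from that choice. At Sox2 TET2 was 2.85 times H2B S112GlcNAc (1.25 to 7.06) and 1.50 times OGT (0.636 to 3.90). At the starts of the other genes the intervals of both TET2 ratios included 1. Those ratios ran from 0.697 (Nanog, over H2B S112GlcNAc) to 2.47 (Tbx3, over OGT).

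Esrrb encodes an orphan nuclear receptor that sustains self-renewal, and its 2 start sites differed. The short transcripts start at 87762.5 kb of chromosome 12, inside the long gene, and there TET2 had 25 positions, OGT 8 and H2B S112GlcNAc 22. The folds were 9.70 (6.28 to 14.3), 5.45 (2.35 to 10.7) and 6.99 (4.38 to 10.6), and over the dense flanks 3.33 (2.16 to 4.92), 1.99 (0.861 to 3.93) and 2.55 (1.60 to 3.86). The long transcripts start at 87702 kb, with 4 TET2, 6 OGT and 12 H2B S112GlcNAc positions. The folds over the library mean were 1.55 (0.423 to 3.97), 4.09 (1.50 to 8.89) and 3.82 (1.97 to 6.66). Over the flanks that is 0.533 (0.145 to 1.37), 1.50 (0.549 to 3.25) and 1.39 (0.718 to 2.43), so no library exceeded its surroundings there beyond counting error.

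Tbx3, a T-box factor of the network, had 13 TET2, 3 OGT and 13 H2B S112GlcNAc positions at its start, chromosome 5 at 120120.5 kb. The folds were 5.04 (2.69 to 8.62), 2.04 (0.421 to 5.97) and 4.13 (2.20 to 7.07), and over the flanks 2.70, 1.09 and 2.21. Prdm14, a repressor of DNA methyltransferase genes in ES cells, starts at 13117 kb of chromosome 1. It had 5, 3 and 7 positions, folds of 1.94 (0.630 to 4.53), 2.04 (0.421 to 5.97) and 2.23 (0.895 to 4.59). Zfp42, also called Rex1 and widely used as a marker of the undifferentiated state, starts at 44392.5 kb of chromosome 8. It had 4, 2 and 6 positions, folds of 1.55 (0.423 to 3.97), 1.36 (0.165 to 4.92) and 1.91 (0.700 to 4.15). For Zfp42 the shares of 2 kb genome windows with at least as many were 24.5%, 37.3% and 15.3%. Within 1 kb of the start, the intervals of Nanog, Prdm14 and Zfp42 included 1 in each library, but this depended on the window and the placement. With 2 kb on each side Prdm14 reached 2.33 (1.20 to 4.07) in TET2 and 2.07 (1.10 to 3.53) in H2B S112GlcNAc. With 500 bp on each side Zfp42 reached 3.82 (1.40 to 8.30) in H2B S112GlcNAc. With the starts moved 500 bp downstream Nanog reached 3.18 (1.52 to 5.85) in that library. Over the sparse flanks of Zfp42, H2B S112GlcNAc was at 2.86 (1.05 to 6.22).

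Gene bodies were taken outside the start-site windows. In Sox2, where 1.5 kb remained next to the window, TET2 had 12 positions and was at 6.23 times the flanks (3.22 to 10.9), with OGT at 1.84 (0.223 to 6.65) and H2B S112GlcNAc at 2.42 (0.890 to 5.28). Of these 12 TET2 positions, 11 fell in the first 500 bp after the window, part of the Sox2 TET2 region described below. In Pou5f1 the intervals of all 3 libraries included 1, at 1.55 (0.868 to 2.56), 1.93 (0.925 to 3.55) and 1.27 (0.692 to 2.12). In the body of Tbx3 there were 56 TET2 positions, 1.79 times the flanks (1.35 to 2.32), while OGT, with 17, and H2B S112GlcNAc, with 37, were at 0.953 (0.555 to 1.53) and 0.969 (0.682 to 1.34). The body of Esrrb held 782 TET2, 386 OGT and 838 H2B S112GlcNAc positions, at 1.32 (1.23 to 1.42), 1.22 (1.10 to 1.35) and 1.23 (1.15 to 1.32) times its flanks. In Prdm14 the 30 TET2 and 19 OGT positions were at 1.91 (1.29 to 2.72) and 1.97 (1.18 to 3.07), and the 27 of H2B S112GlcNAc at 1.38 (0.910 to 2.01). In Nanog the H2B S112GlcNAc interval alone lay above 1, at 2.21 (1.33 to 3.45) from 19 positions. In Klf4 all 3 libraries exceeded the flanks, at 2.92 (1.63 to 4.81), 2.70 (1.17 to 5.32) and 2.42 (1.41 to 3.87). The body of Zfp42 was above its sparse flanks in TET2, at 2.26 (1.38 to 3.49), and in H2B S112GlcNAc, at 1.82 (1.12 to 2.78).

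In order of TET2 counts the start sites ran from Klf4 (34) through the short Esrrb start (25), Sox2 (21), Pou5f1 and Tbx3 (13 each) and Prdm14 (5) to Nanog, Zfp42 and the long Esrrb start (4 each). The intervals of neighbours in this order overlapped at every step. Beside the CG counts of their promoters, Klf4 had 32 CG, the short Esrrb start 3, Sox2 27, Pou5f1 8, Nanog 3, Zfp42 9 and the long Esrrb start 6.

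Summed over the start sites, TET2 scaled to library size was 1.59 times OGT (1.12 to 2.30) and 1.47 times H2B S112GlcNAc (1.12 to 1.93). OGT was 0.924 times H2B S112GlcNAc (0.634 to 1.33). Outside the 8 genes and their start sites the ratios were 1.09 (0.969 to 1.24), 1.06 (0.963 to 1.17) and 0.970 (0.860 to 1.09). Whether the ratios differed between these parts was not tested. Klf4 held 27.6% of the TET2 start-site positions, and without it the TET2 ratios were 1.33 (0.903 to 2.01) over OGT and 1.26 (0.928 to 1.72) over H2B S112GlcNAc. Without Sox2 they were 1.61 (1.09 to 2.43) and 1.34 (1.0005 to 1.79). With 1 library per antibody these ratios have no replicate check.

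Along the genes, the summed TET2 signal peaked in the first 0.5 kb after the start, with 48 positions and a fold of 8.28 (6.10 to 10.97). Of these 48, Klf4 gave 16 and the short Esrrb start 13. H2B S112GlcNAc was highest in the same bin, with 35 positions and a fold of 4.95 (3.44 to 6.88), and so was OGT, with 15 and 4.54 (2.54 to 7.49). TET2 had a second rise from 1.5 to 2 kb upstream, with 35 positions and a fold of 6.04 (4.20 to 8.39). Of those 35, Nanog gave 9, Pou5f1 8, the short Esrrb start 7 and Klf4 1, so few genes gave most of this rise. Without Klf4, and also without both Klf4 and Esrrb, this upstream bin held more TET2 positions than the first 0.5 kb. That bin takes in part of the Pou5f1 and Nanog regions described next. In that bin OGT had 14 positions, a fold of 4.24 (2.32 to 7.11), and H2B S112GlcNAc 24, a fold of 3.39 (2.17 to 5.05). From 2.5 to 3 kb upstream the TET2 fold was 1.03 (0.380 to 2.25). Without Esrrb the TET2 folds in the 2 high bins were 7.32 (5.04 to 10.3) and 5.76 (3.77 to 8.45). The other libraries then no longer peaked in the first bin. OGT was highest from 3.5 to 4 kb downstream, with 12 positions and 4.67 (2.41 to 8.16) against 10 and 3.89 (1.87 to 7.16) in the first bin. H2B S112GlcNAc was highest from 4.5 to 5 kb upstream, with 21 and 3.82 (2.36 to 5.83) against 20 and 3.63 (2.22 to 5.61). Single genes gave much of these maxima. Prdm14 held 7 of the 12 OGT positions and Klf4 held 12 of the 21 H2B S112GlcNAc positions.

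**Figure D3:**
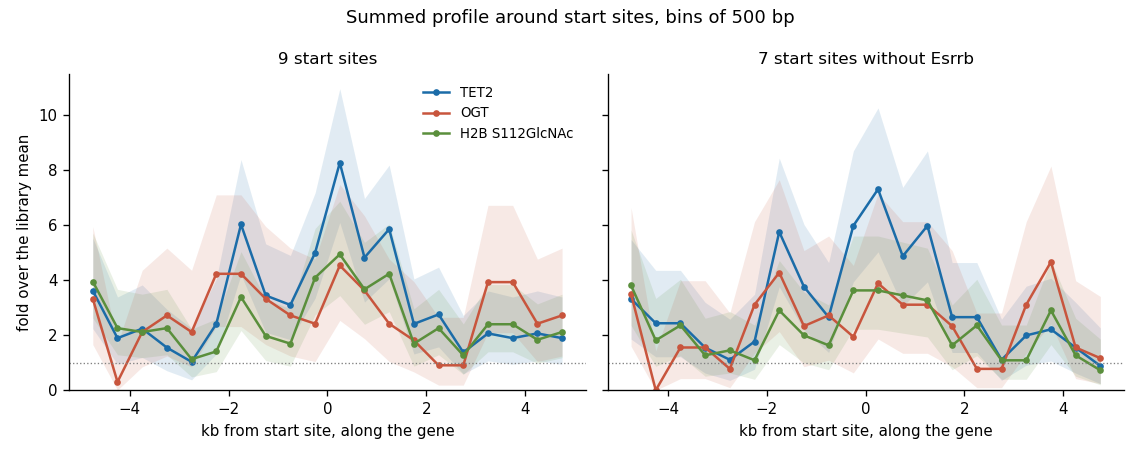
Positions per 500 bp around the start sites, along the direction of the gene, summed over all 9 (left) and over the 7 outside Esrrb (right), as fold over the library mean with exact Poisson 95% bands. TET2 is highest just after the start, at 8.28 on the left, and rises again between 1.5 and 2 kb upstream. Klf4 gives 16 of the 48 TET2 positions just after the start, and Nanog and Pou5f1 give 9 and 8 of those in the upstream rise.

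Regions of local enrichment were called within each library, in windows of 500 bp every 250 bp. A window had to reach 4-fold over its background, with an adjusted Poisson tail under 0.01. The background was the genome mean or the mean within 10 kb or 50 kb, whichever was greatest. The local fold of a region is that of its highest window over this background. The loci held 9 such regions for TET2, at 6 genes, 1 for OGT and 3 for H2B S112GlcNAc. Of all genome windows 0.162% passed in TET2, 0.0304% in OGT and 0.044% in the H2B S112GlcNAc library. Regions covered 1.06%, 0.0885% and 0.310% of the length of the loci, against 0.257%, 0.0482% and 0.0713% of the genome. The OGT figure rests on 1 region. Merged over the libraries there were 12 regions, and 1 of them, in Sox2, was called in more than 1 library.

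At the core factors the TET2 regions lay just upstream of Pou5f1 and Nanog and in Sox2 itself. The Pou5f1 region, chromosome 17 at 35640751 to 35641250, was centred 2 kb upstream of the start, where the distal enhancer of the gene is known to lie. It held 14 TET2, 3 OGT and 7 H2B S112GlcNAc positions, a TET2 fold of 5.67 over the local background. The highest OGT bin of that locus, with 5 positions at 35640501 to 35641000, overlapped it. The Nanog region, chromosome 6 at 122655501 to 122656250, was centred 1.62 kb upstream and held 10 TET2, 5 OGT and 9 H2B S112GlcNAc positions. Its TET2 fold over the local background was 9.56. It lay outside the window of 1 kb around the start, in which the Nanog intervals included 1. Sox2 is a gene of a single exon, and its TET2 region, chromosome 3 at 34549501 to 34550500, lay within it. The region held 20 TET2, 5 OGT and 11 H2B S112GlcNAc positions. It had the highest TET2 fold of the set over the local background, 15.1, and the H2B S112GlcNAc region inside it had 9.97 on that scale. Over the library mean its TET2 fold was 15.5, below that of other regions such as the Pou5f1 one at 21.7.

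Klf4 had a TET2 region at its start and an H2B S112GlcNAc region upstream. The first, chromosome 4 at 55545001 to 55545750, held 20 TET2, 3 OGT and 9 H2B S112GlcNAc positions, and its local fold was 8.77. The second, at 55550001 to 55550500, was centred 4.75 kb upstream. It held 12 H2B S112GlcNAc, 8 TET2 and 6 OGT positions, folds over the library mean of 15.3 (7.89 to 26.7), 12.4 (5.36 to 24.5) and 16.3 (6.00 to 35.6). Of its H2B S112GlcNAc positions 10 were on the minus strand and 2 on the plus strand.

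Esrrb had 4 TET2 regions. The strongest, chromosome 12 at 87743501 to 87744250, lay in the gene 18.6 kb upstream of the short start. It had 20 TET2 and 5 positions in each other library and a local fold of 8.73. The region at 87762501 to 87763000 lay at the short start, with 13 TET2, 3 OGT and 9 H2B S112GlcNAc positions. At 87720251 to 87720750, 18.5 kb inside the gene from the long start, there were 13 TET2, 3 OGT and 1 H2B S112GlcNAc positions. At 87866251 to 87866750, past the end of the gene, there were 12, 5 and 7. Exons and introns were not told apart, since no exon annotation of mm9 was used here.

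The other regions were single ones. The Tbx3 region, chromosome 5 at 120130501 to 120131250, lay 10.4 kb into the gene, with 15 TET2, 7 OGT and 8 H2B S112GlcNAc positions. Its local fold was 7.16. Tbx3 thus had its densest TET2 bin in the 3′ part of the gene, not at the start. The Zfp42 region, chromosome 8 at 44385001 to 44385750, was called in H2B S112GlcNAc, with 10 positions, 1 TET2 and 2 OGT. Differences between libraries at these regions follow in part from how the regions were chosen, so no ratio is given. The OGT region of Prdm14, chromosome 1 at 13113001 to 13113500, held 7 OGT, 5 TET2 and 5 H2B S112GlcNAc positions, and all 7 OGT positions were on the plus strand.

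**Figure D4:**
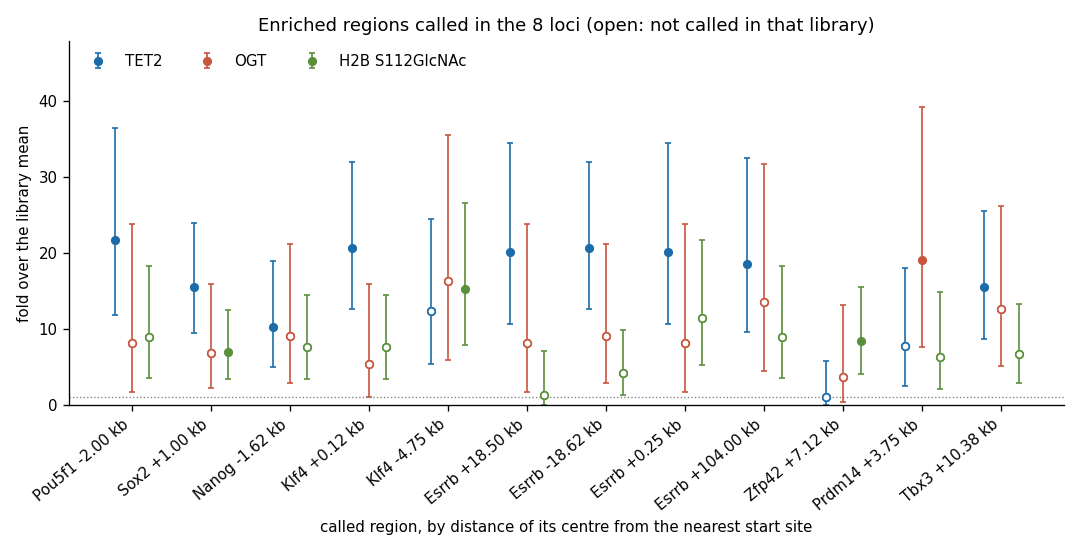
Fold over the library mean at the 12 merged regions, by gene and distance of the centre from the nearest start site (negative is upstream), with exact Poisson 95% intervals. Filled points were called in that library and open points were not. Most open points, for libraries in which the region was not called, also have intervals above 1.

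Regions not called in a library were mostly above its mean all the same. The interval of the fold lay above 1 at 2 of the 3 regions not called in TET2, 10 of the 11 not called in OGT and 8 of the 9 not called in H2B S112GlcNAc. Of all 500 bp windows of the genome 2.04%, 1.53% and 2.63% had such an interval. Those windows were not matched to the regions, several of which were 750 or 1000 bp wide. Each region not called in a library was also chosen by a call in another, and several lay in the dense Esrrb locus. The shares therefore do not measure how far the libraries coincide. The exceptions were the Zfp42 region for TET2 and OGT, and the Esrrb region at 87720251 for H2B S112GlcNAc. The median fold was 17.1 in TET2, 8.63 in OGT and 7.63 in the H2B S112GlcNAc library. Since 9 of the 12 were called in TET2, its lead there follows from the choice of regions. No input library was used here, so read density that any antibody would give enters these folds as well, and its part was not tested. The distance from plus-strand to minus-strand 5′ ends could be taken at 8 of the 13 calls and ranged from 26 to 425 bp, on few positions each.

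**Figure D5:**
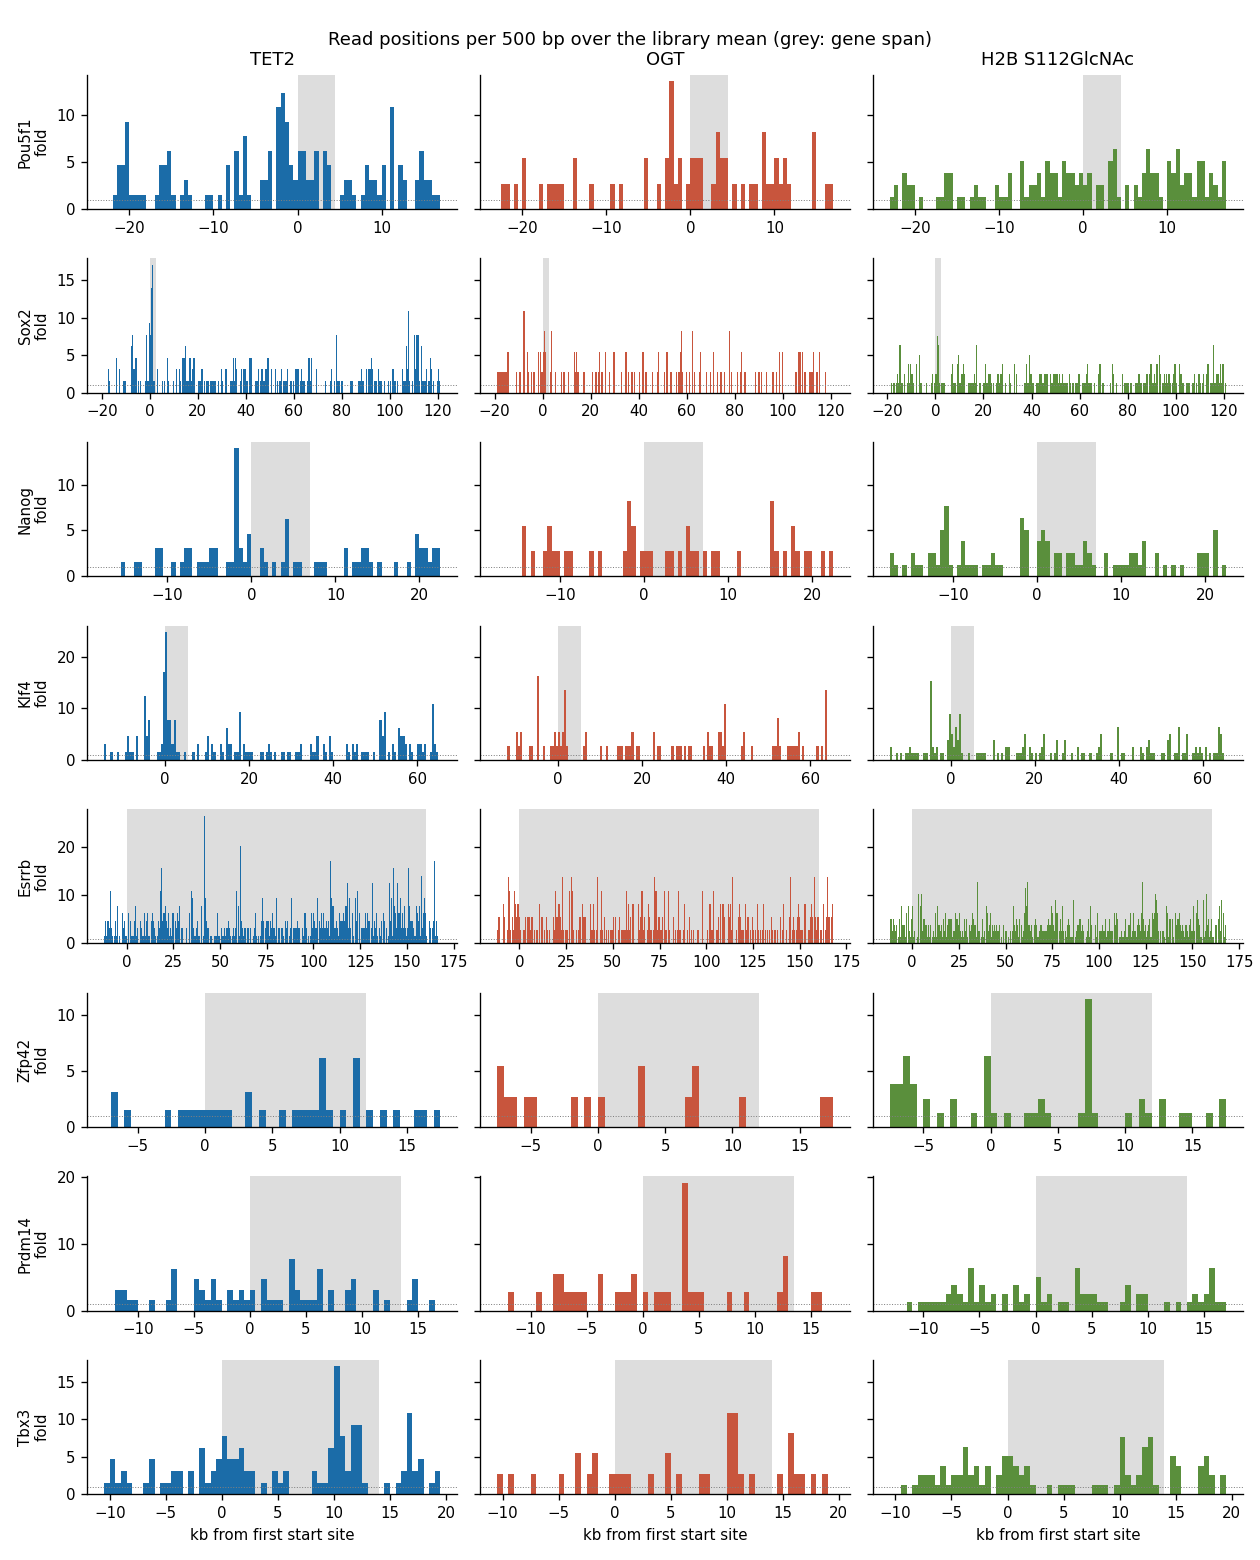
Positions per 500 bp over the library mean along each locus, in the direction of the gene, for TET2 (left), OGT (middle) and H2B S112GlcNAc (right), with the same scale within a row. Grey marks the gene. Klf4 shows a TET2 peak at the start, Sox2 one inside the gene just after it, Nanog and Pou5f1 one just upstream, and Esrrb is dense throughout.

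Outside Esrrb, the highest TET2 fold among 5 kb stretches outside the 8 genes and their start sites was downstream of Sox2, a side known to hold the distal control region of that gene in ES cells. On chromosome 3 from 34655 to 34660 kb, 106 to 111 kb downstream of the start, there were 23 TET2 positions, a fold of 3.57 (2.26 to 5.36). OGT had 7 positions there, a fold of 1.91 (0.767 to 3.93), and H2B S112GlcNAc 7, a fold of 0.890 (0.358 to 1.83). In the next 5 kb there were 20, 8 and 18 positions, folds of 3.10 (1.90 to 4.79), 2.18 (0.941 to 4.29) and 2.29 (1.36 to 3.62). No region was called in either stretch. Downstream of Klf4, from 55490 to 55495 kb of chromosome 4, the TET2 fold was 2.79 (1.66 to 4.41), OGT 2.18 (0.941 to 4.29) and H2B S112GlcNAc 2.03 (1.16 to 3.30). Upstream of Zfp42, from 44395 to 44400 kb of chromosome 8, H2B S112GlcNAc had 19 positions, a fold of 2.42 (1.45 to 3.77), against 4 for TET2 and 6 for OGT. Some stretches with higher counts lay elsewhere. Downstream of Pou5f1, from 35650 to 35655 kb of chromosome 17, there were 19 TET2, 13 OGT and 29 H2B S112GlcNAc positions. Their folds were 2.95, 3.54 and 3.69, but 1.38, 1.75 and 1.83 over the flanks. On that second scale the Klf4 stretch had 3.15, 2.43 and 2.05, and H2B S112GlcNAc at the Zfp42 stretch 3.62. Another stretch downstream of Klf4, from 55505 to 55510 kb, held 13 OGT positions, a fold of 3.54. The stretches named are a selection from 61 of 5 kb, not the highest in each library, and are a description.

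Over the 1130 bins the counts of the libraries were weakly alike. Between TET2 and H2B S112GlcNAc, Pearson's r was 0.427 and Spearman's rho 0.364. Between TET2 and OGT they were 0.381 and 0.261, and between OGT and H2B S112GlcNAc 0.362 and 0.299. Without Esrrb, over 770 bins, r was 0.400, 0.342 and 0.333 for these pairs. Bins of a locus share its read density, and most hold few positions, so these values describe the loci and no more.

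Letters of known motifs were counted on both strands of all 9 matched promoters, without regard to overlap. GGGCGG, the core of the Sp1 motif, occurred 4 times at Klf4, 2 times each at Sox2 and Zfp42 and 1 time at the first Pou5f1 promoter, and not in the others. Of all RefSeq promoters of that length, 32.7% hold it. ATGCAAAT, the octamer bound by Pou5f1, occurred 1 time at Zfp42, and 1.60% of promoters hold it. ACAAAG, part of the Sox motif, occurred 1 time at Sox2, with 16.5% of promoters holding it, and AAGGTCA, the Esrrb motif, in none of them, with 4.08%. CACCC, a core of Klf motifs, occurred 5 times at the first Pou5f1 promoter, 3 times at Zfp42, 3 times at the Nanog promoter not printed, 2 times at the long Esrrb promoter and 1 time at the short one. Of all promoters 52.0% hold it.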

How the data were processed

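The 3 files list aligned reads of 44 bp, 1 per line, as deposited by the authors. The deposited score was constant in each file and was not used. CASAVA 1.4, Bowtie 0.12.2 and the mm9 build are named, per the submitters' processing notes. The sources used here do not give the treatment of reads with several matches. Per the labels' protocols, fragments of 200 to 600 bp were gel purified and amplified by 20 PCR cycles.

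Positions were counted with Python 3.11.15, numpy 2.4.6 and scipy 1.17.1. Repeats of a position and strand, 13.9%, 13.8% and 13.4% of the reads of TET2, OGT and H2B S112GlcNAc, were counted once. Usable genome means the 255754 stretches of 10 kb in which at least 1 read fell. Region calls were adjusted by Benjamini-Hochberg over 10230140 windows, with local means that skipped the window and its nearest 500 bp on both sides. The caller was tried on simulated positions with an even background and planted regions of more positions than several called here. That trial therefore does not bear on calls with few positions or on uneven read density. Ratios have exact Clopper-Pearson intervals, which, like the Poisson intervals, cover counting error alone and say nothing of repeat experiments. Where every read was kept, PCR copies of a molecule also enter the counts, and they are not independent. No p-value between antibodies was computed, as each had 1 library, and ratio intervals compare single libraries. The text names all 8 genes and every called region, and the highest 500 bp bin or 5 kb stretch where described. Loci and lists were chosen with earlier results of these data known. Other genes of the network were not analysed here. Alternatives changed the repeats, shift, depth, window, background and call rule.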

Additional observations from a re-analysis of the deposited data

How the results depend on the processing

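No paired analysis was possible because there was 1 library for each antibody. The alternatives gave 214 values for the main results, of which 167 stayed within the 95% interval (counts: within 1.5 times) and 47 moved. None changed sign, which a fold or a count cannot do. For single start sites 267 of 280 stayed. That is a weak check, since the settings share reads and intervals at few positions are wide, as for OGT at Nanog (0.421 to 5.97). Moving the start sites by 500 bp, and leaving single loci out of the start-site ratios, were chosen after seeing the data. Values follow in the order TET2, OGT, H2B S112GlcNAc. With the 1 Mb on each side as background the summed folds were 1.49, 1.33 and 1.33 for whole loci, 3.35, 2.16 and 2.32 at start sites, 1.40, 1.26 and 1.26 in bodies and 1.47, 1.36 and 1.36 outside the 8 genes. With every read kept they were 2.34, 1.99 and 2.05 for whole loci, 3.22 (TET2) and 2.78 (H2B S112GlcNAc) in bodies, and 1.65 (TET2) and 1.52 (H2B S112GlcNAc) outside the 8 genes. Without Esrrb they were 1.92, 1.57 and 1.65 for whole loci, 2.37, 1.81 and 1.72 in bodies, and 1.47 outside the 8 genes for OGT. Without Sox2 they were 2.80, 2.42 and 2.46 for whole loci and 1.93, 1.80 and 1.83 outside the 8 genes. Without Klf4 they were 4.32 at start sites for TET2 and 2.34 for whole loci for H2B S112GlcNAc. With 500 bp on each side of the start they were 6.64 for TET2 and 4.52 for H2B S112GlcNAc. Drawn down to the depth of OGT, H2B S112GlcNAc was 1.80 outside the 8 genes. For every read kept and for drawing down, the cause was not tested, while other settings change the reference, the loci or the window by construction.

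The number of called regions, 9, 1 and 3, depended on the rule. Drawn down to the OGT depth, TET2 had 4 and H2B S112GlcNAc 1. With the tail under 1e-05 there were 3, 0 and 0, and TET2 had 4 at 8-fold. With every read kept OGT had 0, so the Prdm14 region was lost. With the genome mean alone as background there were 36, 4 and 26. At 2.58, 1.47 and 3.15 positions expected per start site, depth limits what a single site can show.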
